A study of Mus musculus with 6 samples.

Results

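The enzymes described here are those that turn farnesyl diphosphate into squalene and squalene into cholesterol. They were chosen by name, as the 9 genes Fdft1, Sqle, Lss, Cyp51, Msmo1, Nsdhl, Hsd17b7, Sc5d and Dhcr7, out of 18193 genes that had a probe set of their own, and every probe set annotated to exactly 1 of these symbols was taken, which gave 22 of the 45037 probe sets left after removal of controls. Liver RNA of 3 KRAP-/- mice and of a wild-type littermate of each, on normal chow and at an age of 32 weeks, had been hybridized to 1 Affymetrix Mouse Genome 430 2.0 array per mouse. In the KRAP-/- mice a block of coding exons of KRAP was replaced by a neomycin cassette in every cell of the body, and the line was kept on a C57BL6/J background after the use of 129/SV targeting DNA. The sex of these mice was not given in the sources used here. Each genotype has 3 animals. The p-values rest on the spread, over the 3 pairs, of the difference between littermates, together with a trend of that spread with intensity over all probe sets tested. The SDs given for a genotype are between its mice and are not the spread that these p-values use. The livers are whole tissue, so that a lower signal could mean less RNA per cell or fewer cells of a type, and these cannot be told apart.

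Squalene is the first molecule committed to sterols, and the enzymes that follow add oxygen to it, fold it into the ring system of lanosterol and then trim lanosterol to cholesterol. All of them sit in or on the endoplasmic reticulum, and the liver is a main site of this synthesis in mice. When sterols in that membrane run low, the transcription factor SREBP-2 is released from it and switches on the genes of the whole pathway, together with the general factors NF-Y and Sp1.

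For 7 of the 9 enzymes RefSeq gave promoter windows (build GRCm38.p6, 250 bases before and 50 after a start site), 9 windows in all, with 3 of them for Dhcr7. Fdft1 and Sqle had no window in the table. The windows were searched on both strands for the box of NF-Y (CCAAT), the box of Sp1 (GGGCGG) and a core of the sterol regulatory element that SREBPs bind (TCACNCCAC). No match to one of these motifs overlapped a match to another. At least 1 NF-Y box stood in a window of each of the 7 genes and in 7 of 9 windows, with 15 matches in all, while 37.4% of all 32851 windows in the table held one. There were 2 or more in 4 of the 9 windows, against 11.7% of all windows. At least 1 Sp1 box stood in 8 of 9 windows, against 35.7% of all. The core of the sterol regulatory element was in 0 of 9 windows and in 1.24% of all windows, which says only that these letters are not there. The GC content of the 9 windows ran between 48.7% and 71.0%, with a median of 52.7% over all windows; 8 of the 9 were above that median.

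Shown here are the 250 bases before the start site for 4 of the genes, 5′ to 3′ on the strand of the gene, with the NF-Y boxes of either strand in capitals. Lss was chosen because its brightest probe set, which may bind other transcripts, had the largest fall, Nsdhl because its window held the most NF-Y boxes (4, of which 2 lie after the start site and are not shown), Hsd17b7 because it alone did not pass the test, and Dhcr7 because only the third of its windows held any. They lie at chr10:76531355-76531604 on the plus strand (Lss), chrX:72918271-72918520 on the plus strand (Nsdhl), chr1:169969206-169969455 on the minus strand (Hsd17b7) and chr7:143829964-143830213 on the plus strand (Dhcr7).
Lss: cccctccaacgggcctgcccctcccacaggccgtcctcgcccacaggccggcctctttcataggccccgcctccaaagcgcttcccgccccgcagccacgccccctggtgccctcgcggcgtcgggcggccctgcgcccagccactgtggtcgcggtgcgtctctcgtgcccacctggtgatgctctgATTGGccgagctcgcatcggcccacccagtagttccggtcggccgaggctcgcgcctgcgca
Nsdhl: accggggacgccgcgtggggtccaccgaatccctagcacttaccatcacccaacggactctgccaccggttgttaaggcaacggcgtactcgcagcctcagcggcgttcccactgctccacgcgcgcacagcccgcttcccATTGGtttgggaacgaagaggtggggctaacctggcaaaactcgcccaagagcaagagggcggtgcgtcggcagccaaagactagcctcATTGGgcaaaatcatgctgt
Hsd17b7: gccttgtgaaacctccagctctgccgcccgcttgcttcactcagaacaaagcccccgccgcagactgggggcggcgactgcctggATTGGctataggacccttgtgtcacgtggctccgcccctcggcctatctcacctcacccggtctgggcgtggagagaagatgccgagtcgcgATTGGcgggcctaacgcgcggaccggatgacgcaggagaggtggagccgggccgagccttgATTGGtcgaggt
Dhcr7: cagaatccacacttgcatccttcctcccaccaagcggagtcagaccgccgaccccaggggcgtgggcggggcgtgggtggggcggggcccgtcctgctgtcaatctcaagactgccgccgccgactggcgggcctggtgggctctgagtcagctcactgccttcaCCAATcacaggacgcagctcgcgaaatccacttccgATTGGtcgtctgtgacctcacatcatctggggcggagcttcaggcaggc

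Hsd17b7, whose signal was the only one that did not pass, held 3 NF-Y boxes, with first bases at positions −165, −73 and −12 from the start site. Lss held 1, at −62. Nsdhl held 4, Msmo1 3, the third window of Dhcr7 2, and Cyp51 and Sc5d 1 each. A link between the number of boxes and the fall was not tested.

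**Figure D1:**
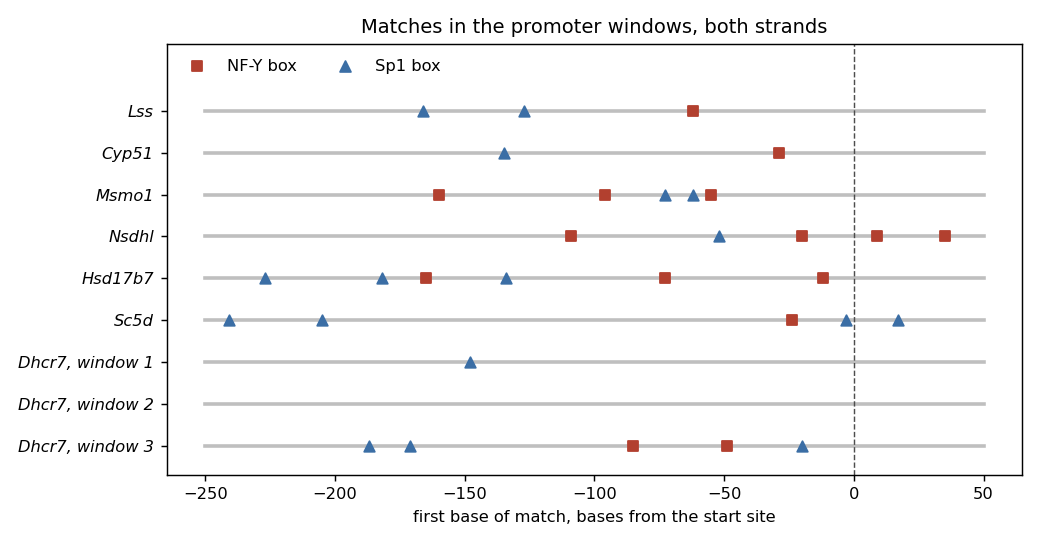
Matches to the NF-Y box (squares) and the Sp1 box (triangles) on both strands in the 9 promoter windows of 7 enzymes, plotted as the distance of the first base of the match from the start site, in bases. At least 1 NF-Y box is seen in every gene, and in Dhcr7 in the third window only.

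The arrays were alike in general quality. The median signal of an array was 20.2 to 23.4 in KRAP-/- liver and 19.1 to 22.6 in wild-type liver. All signals given here are multiples of that median. For the RNA controls, 3′ over 5′ signal of beta-actin was 2.28 to 2.32 in KRAP-/- and 2.01 to 2.65 in wild-type liver, and that of Gapdh was 0.709 to 0.795 in KRAP-/- and 0.729 to 0.778 in wild-type liver. The probe set for KRAP itself, now named Itprid2, had 20.0 to 21.6 in KRAP-/- liver and 22.3 to 24.5 in wild-type liver and did not pass in limma (−0.17 on the log2 scale, adjusted p = 0.44), and its place relative to the deleted exons was not given in the sources used here. All 6 markers of hepatocytes were found, with a summed signal of 3368 to 3843 in KRAP-/- and 3535 to 3637 in wild-type liver, and none passed the test. Of 5 markers of Kupffer cells and macrophages, Clec4f was lower (log2 fold change of −0.54, adjusted p = 0.025 from limma), none was higher, none was at 0, and their summed signal was 112 to 116 in KRAP-/- and 134 to 158 in wild-type liver. The part of these cells in the results was not tested. The summed signal of 4 stellate cell markers, most of it from Dcn and Reln, was 179 to 188 in KRAP-/- and 151 to 177 in wild-type liver. Among these, Lrat had 4.67 to 6.56 in KRAP-/- and 8.72 to 9.14 in wild-type liver (limma, adjusted p = 0.070). The sum of 3 pancreatic acinar markers, most of it from Cela1, was 11.8 to 13.7 in KRAP-/- and 17.1 to 25.0 in wild-type liver. The sum of 3 of 5 adipocyte markers was 0.464 to 0.923 in KRAP-/- and 0.860 to 3.04 in wild-type liver. None of the tested markers of these 3 lists was called, while Cpa1 (acinar), Lep and Cidec (adipocyte) were too dim to test. The part of these cells was not tested either. The 3 genes of the Y chromosome that were found read at most 0.526 on any array, and a signal of this size was not taken as shown to be above background.

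All 9 enzymes of the squalene to cholesterol segment had less signal in KRAP-/- than in wild-type liver, and 8 of them, all but Hsd17b7, passed the test. At the brightest probe sets the fall was largest for Lss and Sqle and smallest, among those that passed, for Sc5d. The brightest probe set of Lss is marked as able to bind other transcripts, and at its unmarked one the fall of Lss was smaller than those of Sqle, Dhcr7 and Msmo1. Of the 22 probe sets, 20 had a mean signal of at least 0.5 and were tested, and the 2 that did not were dim probe sets of Fdft1. In limma, blocked by littermate pair and adjusted over all 28531 probe sets tested, 13 of the 20 were lower in KRAP-/- liver, none was higher and 7 did not pass. Over all probe sets tested 279 were lower, which is 0.978%, and 123 were higher, which is 0.431%. With the values as deposited these counts were 205 and 170, and with quantile normalization 208 and 152. At the brightest probe set of each gene, 8 of the 9 enzymes were lower, with adjusted p-values of 0.0017 to 0.0064 from limma, and Hsd17b7 failed. Over the 9 enzymes the median change on the log2 scale was −1.51, against −0.04 over all probe sets tested, and the mean signals of the 8 enzymes in KRAP-/- liver were 24.5% to 51.1% of those in wild-type liver. By unadjusted p these 8 probe sets stood between place 16 and place 86 of the 28531. The calls depend on the limit for dim probe sets and on the intensity trend of the fit, since without one or the other limma called none of the 9, with adjusted p-values of 0.38 to 0.47 with no limit and 0.42 to 0.44 with no trend, while all 9 had an unadjusted p under 0.05 in both.

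The fold rule that the study's methods state, a KRAP-/- signal at or under 1/1.5 of that of the littermate, 3 times out of 3, was met by 16 of the 22 probe sets, against 2.88% of all 45037. These 16 belonged to 8 genes, all but Hsd17b7, and 2 of the 16 were the dim probe sets of Fdft1. In 17 of the 20 tested probe sets the highest KRAP-/- signal was below the lowest wild-type signal, against 12.3% of all probe sets tested. At the brightest probe set this was so for all 9 genes, Hsd17b7 included.

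**Figure D2:**
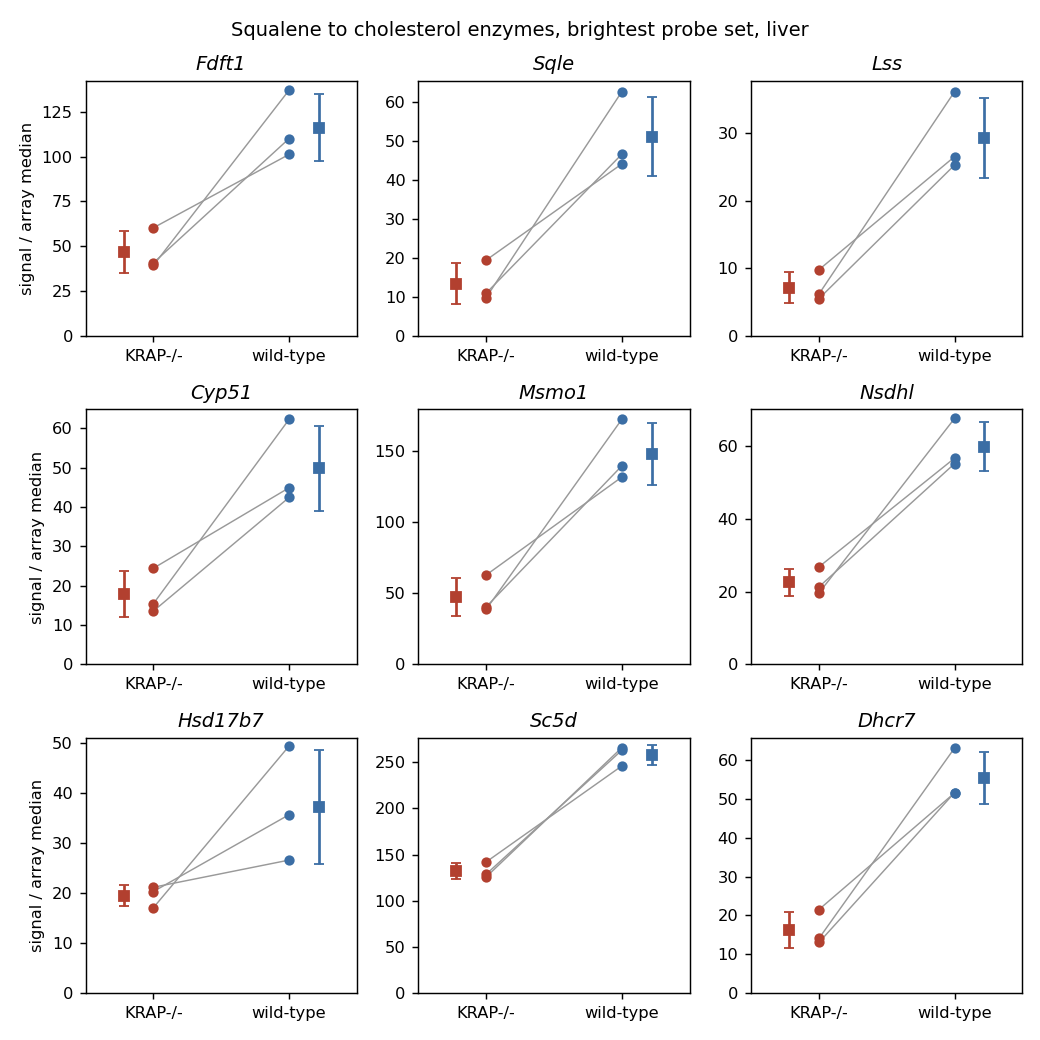
Signal in array medians (linear axes from 0) for the brightest probe set of each of the 9 enzymes in KRAP-/- and wild-type liver. Each point is a mouse, each line a littermate pair, and each square with its bar a mean with SD (n = 3). The genotypes do not overlap in any panel, and the gap is narrowest for Hsd17b7, with 21.1 as the highest KRAP-/- and 26.5 as the lowest wild-type signal.

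Fdft1, squalene synthase, joins a pair of farnesyl diphosphate molecules into squalene. Its brightest probe set had signals of 40.7, 60.3 and 39.3 in the KRAP-/- mice of pairs 1, 2 and 3, against 110, 101 and 137 in their wild-type littermates. All 3 KRAP-/- mice were below all wild-type mice, and the mouse of pair 2 was the highest of the KRAP-/- mice. In limma it changed by −1.33 ± 0.16 (log2, SE; adjusted p = 0.0064). The other bright probe set, which unlike the first is not marked as able to bind other transcripts, had 30.3 ± 7.57 in KRAP-/- against 82.5 ± 12.4 in wild-type liver (SD, n = 3 each), a change of −1.46 on the log2 scale (adjusted p = 0.0037). The 2 dim probe sets had at most 0.384 in KRAP-/- liver and at most 0.821 in wild-type liver, under the limit for testing, and give no fold.

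Sqle, squalene epoxidase, adds the first oxygen and is a rate-limiting step of sterol synthesis. It had 1 probe set, with signals of 11.0, 19.4 and 9.84 in the KRAP-/- mice of pairs 1, 2 and 3, against 46.6, 44.1 and 62.6 in wild-type mice. The groups lay far apart, with 19.4 as the highest KRAP-/- signal and 44.1 as the lowest wild-type signal. The fall from limma was −1.98 ± 0.22 (log2, SE; adjusted p = 0.0040). Among the brightest probe sets of the 9 enzymes its ratios varied most between pairs, with an SD of 0.75 on the log2 scale.

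Lss, lanosterol synthase, folds the epoxide into the first sterol, lanosterol, and its brightest probe set had the largest fall among the brightest of the 9 enzymes. That probe set is marked as able to bind other transcripts, and without pair 2 the fall of Sqle (−2.38 on the log2 scale) was as large as that of Lss (−2.37). Its signals were 5.51, 9.78 and 6.18 in KRAP-/- mice, against 25.2, 26.5 and 36.1 in wild-type mice. Every KRAP-/- mouse was below every wild-type mouse. In limma it changed by −2.06 ± 0.18 (log2, SE; adjusted p = 0.0019). The second probe set, which is not so marked, had 3.19 ± 0.349 in KRAP-/- against 9.38 ± 1.29 in wild-type liver (SD, n = 3 each) and changed by −1.55 (adjusted p = 0.0036). The dimmest, at 0.629 to 0.727 in KRAP-/- and 0.738 to 0.781 in wild-type liver, did not pass (adjusted p = 0.93).

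Cyp51 is a cytochrome P450 enzyme that removes the first of the extra methyl groups of lanosterol. At its brightest probe set the KRAP-/- mice had 13.6, 24.4 and 15.4, against 42.5, 44.9 and 62.3 in the wild-type mice. The mouse of pair 2 was again the highest of its genotype, and the wild-type mouse of pair 3 was the highest of all. In limma it changed by −1.51 ± 0.18 (log2, SE; adjusted p = 0.0054), and a second probe set changed by −1.49 (adjusted p = 0.0077). The third was dim, with 1.38 ± 0.180 in KRAP-/- against 2.89 ± 0.763 in wild-type liver (SD, n = 3 each), and did not pass (log2 fold change of −1.05, adjusted p = 0.090). It passed when pair 2 was left out (adjusted p = 0.039), in a fit with fewer mice that leans more on the intensity trend.

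Msmo1, Nsdhl and Hsd17b7 work in turn to take off the remaining methyl groups, as the methyl oxidase, the decarboxylating dehydrogenase and the ketone reductase of the sterol. Msmo1 had 40.4, 62.8 and 38.7 in KRAP-/- mice, against 139, 132 and 172 in wild-type mice, at its brightest probe set. The genotypes were well apart, and limma gave a change of −1.67 ± 0.17 (log2, SE; adjusted p = 0.0030). Its other probe set was dim, with 0.448 to 1.36 in KRAP-/- and 1.02 to 1.63 in wild-type liver, and did not pass (adjusted p = 0.37).

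Nsdhl, an X-linked gene with 1 probe set, had 21.3, 26.8 and 19.6 in KRAP-/- mice, against 55.2, 56.7 and 67.6 in wild-type mice. Its 3 KRAP-/- signals lay close together and below all wild-type ones. The limma estimate was −1.41 ± 0.13 (log2, SE; adjusted p = 0.0019).

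By its mean in KRAP-/- liver, 52.4% of wild-type against 51.1% for Sc5d, Hsd17b7 was close to an enzyme that passed. It was the only enzyme that did not pass at its brightest probe set. Its brightest probe set had 20.3, 21.1 and 17.0 in the KRAP-/- mice of pairs 1, 2 and 3, against 35.6, 26.5 and 49.3 in the wild-type mice. The KRAP-/- mice were close to each other while the wild-type mice were spread widely, and the groups did not overlap. The difference from limma was −0.89 ± 0.19 (log2, SE; adjusted p = 0.058). With the values as deposited, with a pseudocount of 0.25, and without pair 1, 2 or 3, it passed, with adjusted p-values of 0.023, 0.0498, 0.021, 5.0e-05 and 0.046. In limma it failed with quantile normalization (adjusted p = 0.076), a floor of 0.01 (0.062), a mean of at least 1 (0.061) and no block (0.051). It also failed with no limit on dim probe sets (0.47) and with no trend (0.44). The fits without a pair have fewer mice, and their p-values lean more on the intensity trend. Without pair 3 it passed although the change was smaller, −0.57 on the log2 scale. The brightest probe set may bind other transcripts. The next in brightness, which is not so marked, had 9.29 ± 1.30 in KRAP-/- against 13.5 ± 2.55 in wild-type liver (SD, n = 3 each), or −0.53 on the log2 scale (adjusted p = 0.19). The third had 4.92, 6.20 and 4.59 in KRAP-/- mice against 4.69, 7.39 and 10.7 in wild-type mice, and here the KRAP-/- mouse of pair 1 was above its littermate (log2 fold change of −0.47, adjusted p = 0.37). The dimmest was at 0.232 to 0.747 in KRAP-/- and 0.363 to 0.811 in wild-type liver and did not pass either (adjusted p = 0.83).

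Sc5d, the lathosterol desaturase, puts in the double bond that gives 7-dehydrocholesterol, and Dhcr7 removes one from that product to give cholesterol. The brightest probe set of Sc5d had 129, 142 and 126 in KRAP-/- mice, against 263, 246 and 266 in wild-type mice. Both genotypes were narrow, and the KRAP-/- level was 51.1% of the wild-type level. The limma estimate was −0.97 ± 0.09 (log2, SE; adjusted p = 0.0018). The other probe sets changed more, by −1.29 (adjusted p = 0.0019) and −1.12 (adjusted p = 0.010), with 27.0 ± 3.48 in KRAP-/- against 66.0 ± 6.12 in wild-type liver and 3.76 ± 0.341 in KRAP-/- against 8.36 ± 2.27 in wild-type liver (SD, n = 3 each). Sc5d was the only gene of the 9 with over 1 probe set for which all of them passed.

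Dhcr7 had 1 probe set, with 13.0, 21.5 and 14.04 in KRAP-/- mice, against 51.7, 51.6 and 63.2 in wild-type mice. The highest KRAP-/- mouse, that of pair 2, was still at 41.7% of its littermate. Its change of −1.81 ± 0.16 (log2, SE) had the lowest adjusted p among the brightest probe sets of the enzymes in limma, 0.0017.

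**Figure D3:**
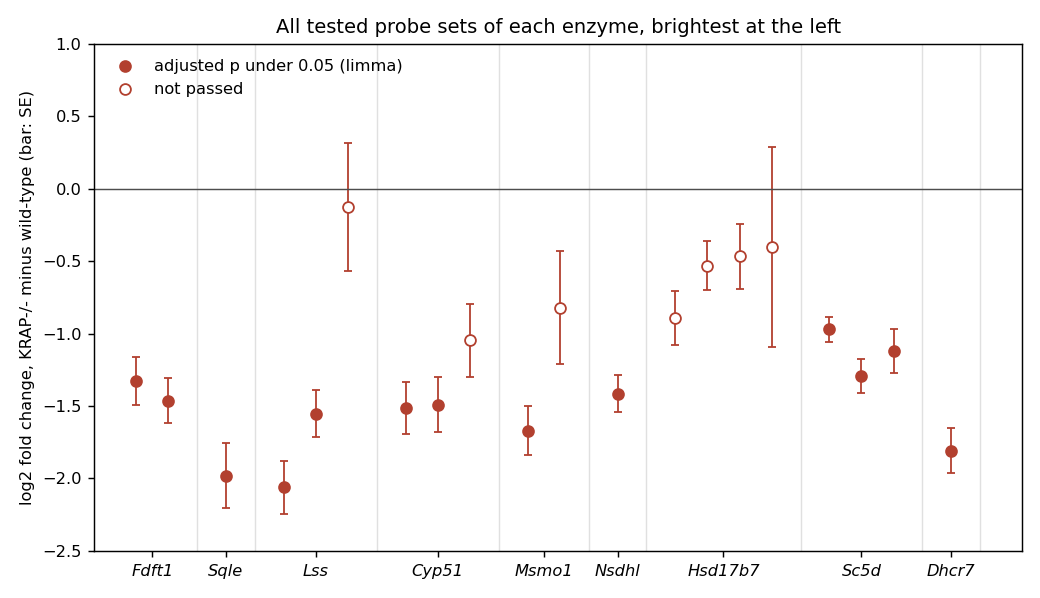
Log2 fold change of KRAP-/- over wild-type liver, with its standard error, for the 20 tested probe sets of the 9 enzymes in pathway order, the brightest of each gene at the left. Points are filled where limma gave an adjusted p under 0.05. The open points are the dimmest probe sets of Lss, Cyp51 and Msmo1 and all 4 of Hsd17b7, and all 20 lie below 0.

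The 7 probe sets that did not pass were of 2 kinds. Of 16 probe sets with a mean signal of at least 5, 13 were lower, and the remaining 3 were those of Hsd17b7. The other 4, the dimmest of Hsd17b7 among them, had lower means. Outside Hsd17b7 no probe set that failed had a mean signal above 2.13, while the dimmest that passed had 6.06.

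In all 3 littermate pairs every enzyme was lower in the KRAP-/- mouse at its brightest probe set. At the brightest probe set, the fall was smallest in pair 2 and largest in pair 3 for all 9 enzymes. The median level in KRAP-/- liver was 31.9% of the wild-type littermate in pair 1, 47.7% in pair 2 and 24.8% in pair 3. The lowest levels were 21.8% in pair 1 and 36.9% in pair 2, both for Lss, and 15.7% in pair 3, for Sqle. At or below 50% were 8 of the 9 enzymes in pair 1, 5 in pair 2 and 9 in pair 3. Differences between pairs and between enzymes were not tested.

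**Figure D4:**
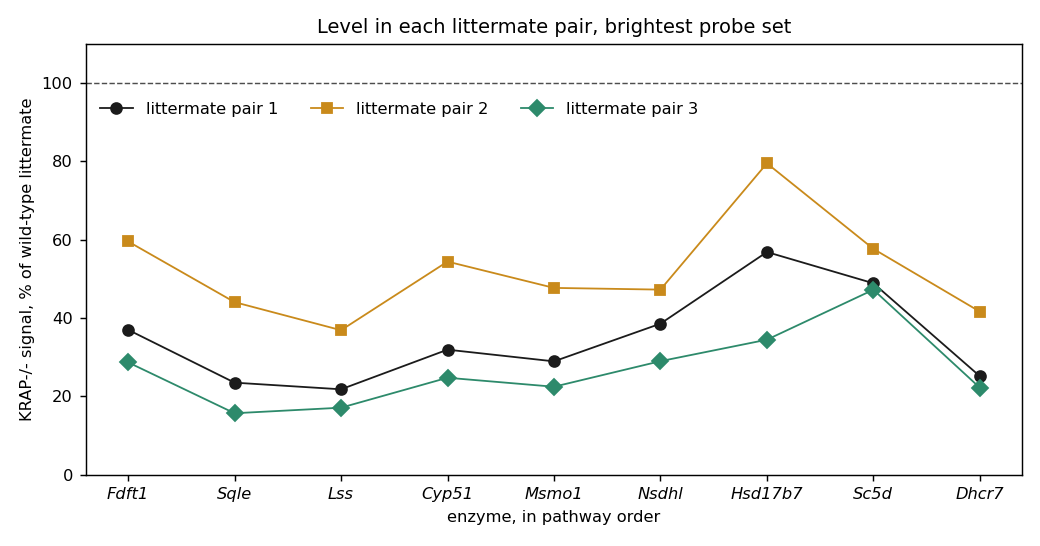
KRAP-/- signal as a percentage of that of the wild-type littermate, for the brightest probe set of each enzyme in pathway order, with 1 line for each littermate pair and a dashed line at 100%. The line of pair 2 is the highest and that of pair 3 the lowest throughout, from 79.5% for Hsd17b7 in pair 2 to 15.7% for Sqle in pair 3.

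The KRAP-/- mouse of pair 2 had the highest signal of the KRAP-/- mice in all 9 enzymes, and the wild-type mouse of pair 3 had the highest of the wild-type mice in all 9. Those 2 arrays also had the lowest median of their genotype, 20.2 and 19.1, and each signal is divided by that median. In the values as deposited the same mice were highest in 7 and 8 of the 9 enzymes, with Hsd17b7 and Sc5d highest in the KRAP-/- mouse of pair 1 and Sc5d in the wild-type mouse of pair 1, and with quantile normalization they were highest in all 9. Averaged over the 9 enzymes, the log2 signal centred on each gene's own mean was −0.93, −0.38 and −0.96 in KRAP-/- mice of pairs 1, 2 and 3, and 0.66, 0.59 and 1.02 in wild-type mice.

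The order of the enzymes by size of change was much alike in the pairs. At the brightest probe sets Lss, Sqle and Dhcr7 had the 3 largest falls in each of the 3 pairs. At the unmarked probe set of Lss the log2 ratios of −1.62 in pair 1 and −1.87 in pair 3 were smaller falls than those of Msmo1 (−1.79 and −2.15) and Cyp51 (−1.65 and −2.01). Hsd17b7 had the smallest in pairs 1 and 2, with log2 ratios of −0.81 and −0.33, and Sc5d in pair 3, with −1.08. Enzymes at the start and at the end of the pathway are thus found among both the larger and the smaller falls, with Sqle and Dhcr7 on one side and Fdft1 and Sc5d on the other. Among the brightest probe sets the spread of the log2 ratio over the pairs was smallest for Sc5d, with an SD of 0.15.

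The signals of the enzymes also moved together from mouse to mouse. Over the 6 arrays, Pearson's r between the log2 signals of any pair of the 9 enzymes was 0.890 to 0.999, with a median of 0.991 over 36 pairs of genes, which mostly restates the difference between genotypes. After each genotype's mean was taken away, r was 0.497 to 0.9996, with a median of 0.936, and above 0 in all 36. These are descriptions over 6 arrays, all values of which share the array and its scaling.

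Of the 5959 probe sets named for 1 gene outside the list with enough spread over the 6 arrays (an SD of at least 0.43 on the log2 scale), the 5 genes most like the mean of the enzymes were Hmgcs1, Pmvk, Fdps, Mvk and Mvd, with Pearson's r of 0.999, 0.995, 0.991, 0.991 and 0.991 over 6 arrays. An r of at least 0.95 was reached by 41 of the 5959. The signals of Hmgcs1 were 133, 192 and 140 in KRAP-/- mice, against 340, 324 and 430 in wild-type mice, with the same mice highest in each genotype as for the enzymes. At the probe sets of these 5 genes the log2 fold changes were −1.24 for Hmgcs1, −1.62 for Pmvk, −2.09 for Fdps, −1.01 for Mvk and −2.37 for Mvd. The 5 genes were picked by this likeness, so the order of the mice and the direction of the changes largely follow from the choice.

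The pathway has further enzymes and needs partner proteins, and a list of 14 of these was described in the same way, of which 12 were measured and 2 were not analysed here. At the brightest probe set 4 of the 12 were lower, none was higher and 8 failed, with a median of −0.22 on the log2 scale, where 0.978% of all probe sets tested were lower. With the values as deposited 2 of the 12 were lower, and with no limit on dim probe sets or with no trend 0 were. The fold rule was met by 1 of the 12 at that probe set, Tm7sf2. Tm7sf2, a sterol reductase that acts after Cyp51, had 48.0, 48.9 and 45.7 in KRAP-/- mice, against 79.8, 97.8 and 77.3 in wild-type mice. All KRAP-/- signals lay below all wild-type ones, and limma gave a change of −0.83 ± 0.09 (log2, SE; adjusted p = 0.0037). Lbr, the lamin B receptor, which can carry out the same reduction, had 12.2 ± 1.77 in KRAP-/- against 14.6 ± 1.44 in wild-type liver (SD, n = 3 each) with overlap, and did not pass (adjusted p = 0.42). Ebp, the sterol isomerase that acts before Sc5d, had 139, 118 and 120 in KRAP-/- mice against 188, 159 and 153 in wild-type mice, or −0.40 on the log2 scale (adjusted p = 0.040). The call was lost on the deposited scale (adjusted p = 0.23), with the block dropped (0.097), without pair 1 (0.057) and without pair 2 (0.14).

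Electron carriers that serve Msmo1 and Sc5d were among the partners. Cyb5r3, the reductase of cytochrome b5, had 102, 98.6 and 93.1 in KRAP-/- mice, against 178, 151 and 139 in wild-type mice. The groups did not overlap, and limma gave a change of −0.66 ± 0.08 (log2, SE; adjusted p = 0.0065), with 3 of its 4 probe sets lower and the fourth too dim to test. The brightest is marked as able to bind other transcripts. The next, which is not so marked, changed by −0.61 (limma, adjusted p = 0.014). With marked probe sets removed 3 partners were lower, and Cyb5r3 was then not counted. Cyb5b, the cytochrome b5 of the outer mitochondrial membrane, had 84.6, 82.0 and 77.9 in KRAP-/- mice against 127, 110 and 114 in wild-type mice, and was lower at all 3 of its probe sets (log2 fold change of −0.52, adjusted p = 0.018, at the brightest). At its brightest probe set the call was lost on the deposited scale (adjusted p = 0.078). Cyb5a, the microsomal form that sits with the sterol enzymes, had 435 ± 27.5 in KRAP-/- against 408 ± 18.7 in wild-type liver (SD, n = 3 each) and did not pass (log2 fold change of 0.09, adjusted p = 0.66).

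Of the proteins that hold, carry or degrade parts of this machinery, none passed. Erg28, which in yeast tethers the enzymes that remove the methyl groups, had 35.6, 40.7 and 27.9 in KRAP-/- mice, against 47.7, 47.8 and 59.0 in wild-type mice, or −0.58 on the log2 scale (limma, adjusted p = 0.10), and it passed without pair 1 (adjusted p = 0.047) and without pair 2 (0.0050). The fits without a pair have fewer mice, and their p-values lean more on the intensity trend. The groups of Erg28 did not overlap, and again the highest mice were the KRAP-/- mouse of pair 2 and the wild-type mouse of pair 3. Its only probe set is marked as able to bind other transcripts. Marchf6, the ubiquitin ligase that marks squalene epoxidase for breakdown, had 83.3 ± 11.1 in KRAP-/- against 83.0 ± 10.5 in wild-type liver (SD, n = 3 each) at its brighter probe set, which did not pass (0.00 on the log2 scale, adjusted p = 0.99). Its dimmer one had 7.25 ± 0.770 in KRAP-/- against 4.96 ± 0.559 in wild-type liver and did not pass either (0.55, adjusted p = 0.097). Sec14l2, Pgrmc1, Scp2 and Cyb5r1 did not pass either, with log2 fold changes between −0.18 and 0.09 at their brightest probe sets.

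**Figure D5:**
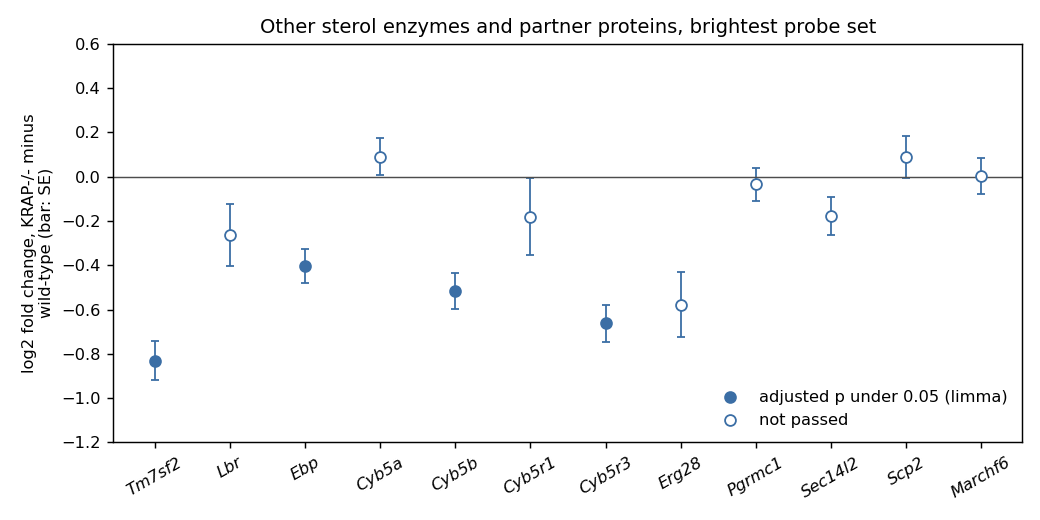
Log2 fold change of KRAP-/- over wild-type liver, with its standard error, for 12 other sterol enzymes and partner proteins at their brightest probe sets. Points are filled where limma gave an adjusted p under 0.05. Tm7sf2, Ebp, Cyb5b and Cyb5r3 are filled, between −0.83 and −0.40, and none is as low as the median of −1.51 of the 9 enzymes.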

How the data were processed

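Total liver RNA of 3 KRAP-/- and 3 wild-type littermates was analysed. Groups and mouse numbers were taken from the labels, and the pairing of littermates by equal number from the study's methods. As deposited, the values are signal intensities on a linear scale from the software GCOS (version not given in the sources used here), neither log transformed nor scaled to a common median; the per-chip normalization of the methods is not in them. Here each signal was divided by its array's median, and 64 controls were left out. Signals floored at 0.1 were taken as log2 and fitted in R 4.3.3 by limma 3.58.1, blocking on littermate pair, using an intensity trend, and applying Benjamini-Hochberg adjustment over the 28531 probe sets with a mean of at least 0.5, with 0.05 as the threshold. The scaling, floor and limit could each change the numbers. The fit was tested on simulated data whose noise was taken from the fit itself, which cannot check the intensity trend or the limit for dim probe sets. Python 3.11.15 served for tables (pandas 2.3.3, numpy 2.4.6) and for plots (matplotlib 3.10.9).

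The littermates share a litter, which is the ground for the block; deviations from the genotype means correlated by 0.04, 0.01 and −0.01 between littermates. The enzymes, the lists and the tests were chosen with earlier results of these data known. Named are all probe sets of the 9 enzymes, KRAP, the genes of the partner list that passed (up to 4) or changed most, with the remaining partners given briefly, and the 5 genes most like the enzymes' mean. Symbols came from the platform annotation, in which 34945 probe sets had 1 symbol, 932 several and 9160 none. The number of arrays limits the precision. Alternatives were other scalings, floors, a pseudocount, other limits on dim probe sets, no block, no trend, no probe sets marked for cross-hybridization, omission of each pair, and a limit of 2-fold.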

Additional observations from a re-analysis of the deposited data

How the results depend on the processing

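All 9 enzymes stayed below 0 at the brightest probe set under each of the 12 alternatives to the fit (where 3 of those probe sets were removed as cross-hybridizing, at the next brightest). The calls rest on the intensity trend and on the limit for dim probe sets. With no limit (45037 probe sets) or no trend, limma called 0 of all probe sets lower and 0 higher, 0 of the enzymes' probe sets, 0 of the 9 enzymes and 0 of the 12 partners, although 4551 and 3089 of all probe sets, and all 9 enzymes in both, had an unadjusted p under 0.05, and the cause was not tested. Without the littermate pair as a block, 255 probe sets were lower and 93 higher, with 13 of the enzymes' probe sets, 8 enzymes and 3 partners lower. With the values as deposited 2 partners were lower. Leaving out each pair gave 288 to 469 lower and 123 to 295 higher probe sets, 14 to 15 of the enzymes' probe sets, 9 enzymes, 4 partners and a median of −1.83 to −1.26. With all pairs 279 were lower and 123 higher, so the calls did not drop in number with fewer mice. A fit without a pair has fewer differences between littermates from which to measure the spread. Its p-values lean more on the intensity trend, so these calls are no check of the main fit. At the 2-fold limit 7 of the enzymes' probe sets and 535 of all met the fold rule, against 16 and 1299 (1 of the 7 is a probe set of Fdft1 too dim to test, and the only one of that gene), and of all probe sets 439 met it with a pseudocount of 0.25 and 393 with a mean of at least 0.5. The 3 mice in each genotype and the low signal of the dimmest probe sets of Fdft1, Lss, Msmo1 and Hsd17b7 limit what can be seen.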
